A study of Mus musculus with 6 samples.

Results

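The Ly6 genes of mouse chromosome 15 encode small surface proteins. Transcripts of these genes were described here in villi of mice lacking the cation channel-kinase TRPM7 in the gut epithelium. The 10 genes followed were *Ly6m*, *Gml*, *Ly6a*, *Ly6c1*, *Ly6d*, *Ly6e*, *Ly6g*, *Ly6h*, *Ly6i* and *Ly6k*. Members were chosen by name in the platform annotation, and each was to be read by the probe set selected for the highest mean signal over all 6 arrays, a value that does not use genotype. Of the 10, 8 had a probe set with a single symbol, 1 each, among 19938 such genes on the array, so the mean signal decided nothing among them. *Ly6c1* was found only on probe sets shared with *Ly6c2*, and *Ly6a* was not listed. The rises of *Ly6m* and *Gml* were known when the genes were chosen, so their values are a description and carry no p value.

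Proteins of the Ly6/uPAR family fold into a compact domain of finger-like loops held by disulfide bonds. Most are tethered to the outer leaflet of the plasma membrane by a glycosylphosphatidylinositol (GPI) anchor, and a few are secreted. Many serve as antigens that mark blood cell lineages, and some act on nicotinic acetylcholine receptors or carry ligands at the cell surface. In the gut, *Ly6a* (Sca-1) is a marker of epithelium that regrows after injury in a fetal-like state.

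The mutant group was *Trpm7* fl/fl;*Villin1-Cre* (3 arrays), and the control group was *Trpm7* fl/fl littermates (3 arrays). Pups were 5 days old, on a background labelled C57BL/6, with sex labelled unknown, and the floxed line is described in the methods as 129S6/SvEvTac. Both groups carried the floxed alleles and only the mutants carried Cre, which the *Villin1* promoter drives in epithelial cells along the whole intestine and not in the other cells of a villus. Villi were collected from the whole intestine by mechanical dissociation and centrifugation, and their total RNA was hybridised to whole-transcript arrays. The labels do not say that each array is a single pup, so every p value measures the spread between arrays.

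Signals are log2 values as deposited, with array medians of 6.24 to 6.30. *Trpm7*, the deleted gene, averaged 7.90 ± 0.12 in mutant villi and 9.03 ± 0.08 in control villi (SD, n = 3 each; limma adjusted p = 1.9e-04). Enterocyte markers were bright in both groups. The log2 of their summed linear signals, a value that the brightest genes dominate, was 16.66 to 16.68 on mutant arrays and 16.63 to 16.64 on control arrays. Of 10 such markers, 3 rose and 1 fell. The arrays differed in sex-linked transcripts. *Xist* read 10.18, 4.76 and 5.26 on mutant arrays 1, 2 and 3, against 10.48, 9.82 and 9.66 on control arrays 1, 2 and 3. The Y-linked *Eif2s3y* read 3.56, 8.38 and 8.50 on the mutant arrays, against 3.63, 7.71 and 7.84 on the control arrays. Control replicates 2 and 3 therefore held both transcripts, and mutant replicate 1 was the only mutant array with *Xist*. Mutant replicate 1 is also the array on which several Ly6 genes were highest, and results that rest on it are given with and without it.

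*Ly6m* and *Gml* had the largest differences among the members. *Ly6m* read 12.21, 11.86 and 11.02 on the 3 mutant arrays, against 6.62, 5.96 and 5.61 on the 3 control arrays. The lowest mutant array lay 4.40 log2 units above the highest control array. The means were 11.70 ± 0.61 in mutant villi and 6.06 ± 0.51 in control villi (SD, n = 3 each), a log2 difference of 5.63 ± 0.33 (SE) or 49.6-fold. *Gml* (GPI anchored molecule like) read 11.11, 10.86 and 10.63 in mutant villi, against 6.83, 6.95 and 7.02 in control villi. Its human counterpart, GML, is known as a gene induced by p53. The difference was 3.93 ± 0.12, or 15.3-fold, and the mutant arrays spanned only 0.48 log2 units. A further probe set, which the annotation gives to *Gml* and *Gml2* together, read 10.91, 10.57 and 10.60 in mutant villi, against 6.04, 6.23 and 6.38 in control villi. That is 22.3-fold higher, and which of the 2 genes it reports cannot be told apart. The control means of *Ly6m* and of the shared *Gml* probe set lay under the array medians. No detection call comes with the values used here, so whether those control signals exceed background was not tested. Leaving out any single array kept the *Ly6m* difference between 5.38 and 5.97 and the *Gml* difference between 3.81 and 4.05.

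**Figure D1:**
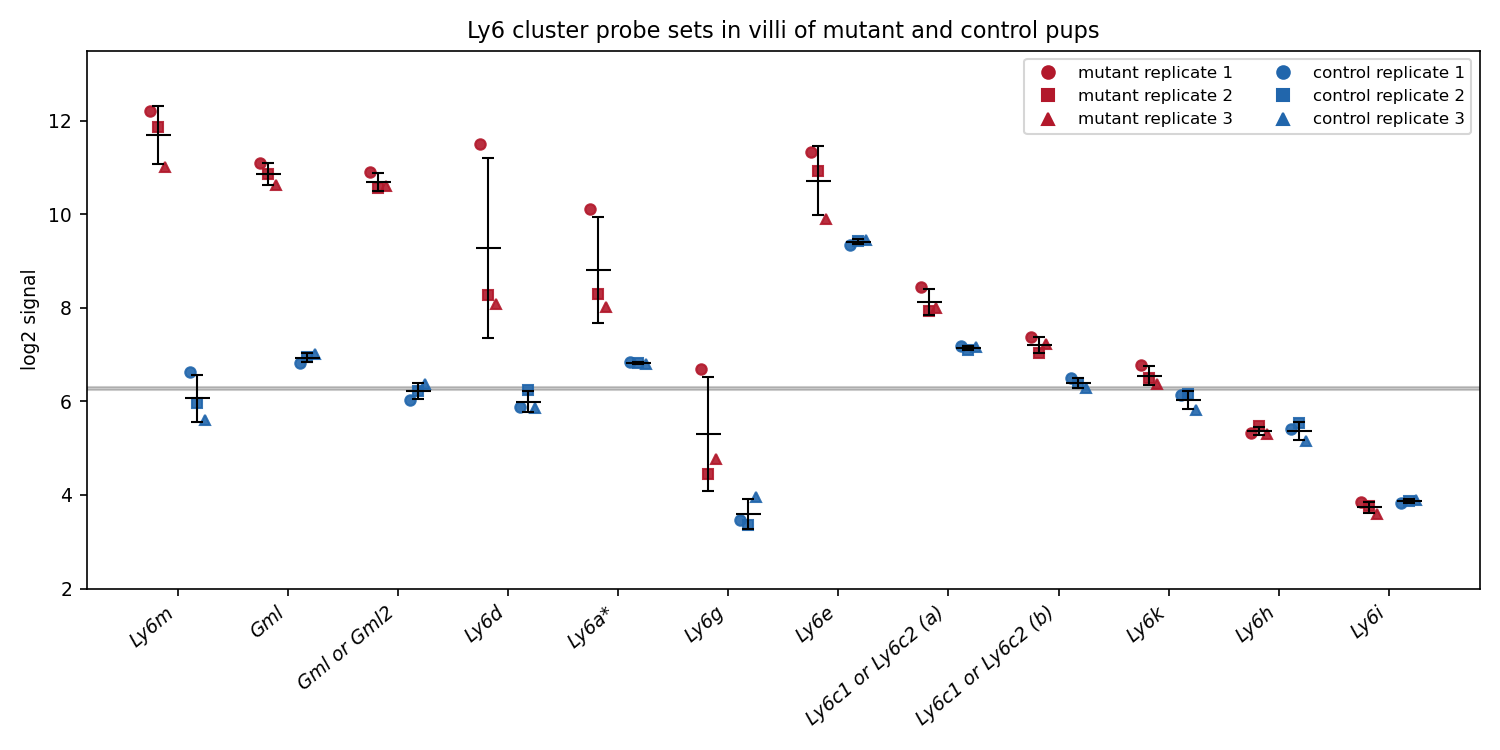
Log2 signal (vertical axis) of each Ly6 probe set on 3 mutant arrays (red, left of each pair) and 3 control arrays (blue), with black bars for mean and SD and a grey band for the array medians (6.24 to 6.30). The asterisk marks the *Ly6a* probe set named by the study's gene table. *Ly6m* and *Gml* separate widely, *Ly6d*, *Ly6a* and *Ly6g* have mutant replicate 1 far above the other mutants, and *Ly6h* and *Ly6i* overlap.

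Leaving *Ly6m* and *Gml* aside, 3 of the 6 members read by their own probe set rose, and the other 3 missed the threshold. Over all 30177 probe sets, 8.04% rose and 8.82% fell at the same threshold (limma, Benjamini-Hochberg adjusted p of 0.05, two-sided). Every mutant array lay above every control array for 4 of these 6 members, while 16.9% of all probe sets showed that order. Leaving out any control replicate ended all 3 calls, and trend with robust estimation kept that of *Ly6k* alone. The median log2 difference of the 6 was 0.91, against 0.0033 for all probe sets.

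*Ly6d*, a surface protein of early B-lineage cells and keratinocytes, rose the most of the 6. It read 11.51, 8.27 and 8.08 in mutant villi, against 5.88, 6.25 and 5.85 in control villi. Mutant replicate 1 stood 3.24 log2 units above the next mutant array, yet all 3 mutants were above all controls. The log2 difference was 3.29 ± 0.80 (SE), or 9.80-fold (limma adjusted p = 0.027). Without mutant replicate 1 the difference was 2.18 (adjusted p = 3.8e-04). Leaving out any control replicate kept the difference at 3.22 to 3.42 but ended the call (adjusted p = 0.065 to 0.081). Of 14 genes of stratified squamous epithelium, *Krt14* rose and *Ivl* fell, and 13 of the 14 lay under the array median on every array. The log2 of their summed linear signals was 8.86 to 8.92 in mutant villi and 9.04 to 9.22 in control villi. Of 8 measured T and B cell markers, none passed the test in either direction, and 6 of the 8 lay under the array median on every array. *Cd79a* and *Ms4a1*, the B cell genes among them, averaged 3.83 and 3.76 in mutant villi and 3.61 and 3.86 in control villi. At such dim signals a change may not be detectable. In bulk villi a change in the number of cells of a type and a change in RNA per cell cannot be told apart.

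*Ly6a* was read from a probe set that the study's own gene table assigns to it and that the annotation leaves unnamed. It read 10.11, 8.29 and 8.02 in mutant villi, against 6.84, 6.83 and 6.81 in control villi. The 3 control arrays lay within 0.03 of each other, and again mutant replicate 1 was the highest. The means were 8.81 ± 1.14 and 6.83 ± 0.02 for mutant and control villi (SD, n = 3 each), 3.94-fold apart (limma adjusted p = 0.025). Without mutant replicate 1 the log2 difference was 1.33 (adjusted p = 6.9e-04). Leaving out any control replicate kept the difference at 1.97 to 1.99 but ended the call (adjusted p = 0.067 to 0.073).

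*Ly6g*, the antigen by which neutrophils are sorted, did not pass the test. Its signals were 6.70, 4.45 and 4.77 in mutant villi, against 3.47, 3.35 and 3.96 in control villi, a log2 difference of 1.71 ± 0.52 (SE; limma adjusted p = 0.061). The groups did not overlap, and the call was made without mutant replicate 1 (difference 1.02, adjusted p = 0.018) or without mutant replicate 2 (2.14, adjusted p = 0.044). These signals are dim, with the control mean at percentile 8.62 of all probe sets. With an offset of 32 on the linear scale the difference was 0.78 (limma adjusted p = 0.19). Neutrophil markers were highest on another array. Of 11 listed, 6 rose, and 10 of the 11 were highest in mutant replicate 3 and none in mutant replicate 1. *S100a9*, a calcium-binding protein abundant in neutrophils, read 7.94, 8.81 and 10.39 in mutant villi, against 5.41, 5.73 and 5.63 in control villi. The log2 of the summed linear signals of the neutrophil list was 9.96, 10.58 and 11.91 in mutant villi, against 8.72, 8.77 and 8.72 in control villi. *Mpo* and *Elane*, made early in neutrophil maturation, stayed under the array median. The part of neutrophils in the *Ly6g* signal was not tested.

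*Ly6e*, an interferon-inducible gene, rose. Its signals were 11.34, 10.92 and 9.91 in mutant villi, against 9.35, 9.44 and 9.46 in control villi. Mutant replicate 3 lay closest to the controls, which differed among themselves by only 0.11. The log2 difference was 1.31 ± 0.31 (SE), or 2.47-fold (limma adjusted p = 0.024). Among the fits without 1 array it was called only without mutant replicate 3 (1.71, adjusted p = 4.4e-04; the others gave 0.053 to 0.090). Of 10 measured interferon-induced genes, 8 rose and *Irf1* fell. *Ifit3* read 11.27, 11.80 and 10.59 in mutant villi, against 8.11, 8.17 and 8.17 in control villi. The log2 of the summed linear signals of the list was 14.28, 14.65 and 13.89 in mutant villi and 13.42 on each control array. Mutant replicate 3 was thus the lowest mutant array for *Ly6e* and for this sum. It was also the lowest for *Ly6m*, *Gml*, *Ly6d*, *Ly6a* and *Ly6k*, though not for *Ly6g*. The highest mutant array was replicate 1 for *Ly6e* and replicate 2 for the sum. The part of interferon in the rise of *Ly6e* was not tested.

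*Ly6c1* could be read only together with *Ly6c2*, a near-identical gene, and together these make the Ly6C antigen of monocytes and of some endothelium. One shared probe set read 8.44, 7.93 and 8.0 in mutant villi, against 7.18, 7.10 and 7.16 in control villi (limma adjusted p = 0.0022). The other read 7.38, 7.04 and 7.22 in mutant villi, against 6.51, 6.40 and 6.28 in control villi (adjusted p = 0.0019). Both rose, by log2 differences of 0.98 ± 0.13 and 0.82 ± 0.11 (SE), and kept the call in every alternative fit that was run. Of 8 endothelial markers, none rose, and *Tek* and *Emcn* fell. Of 8 monocyte and macrophage markers, *Itgam*, an integrin that neutrophils also carry, rose, and the macrophage marker *Adgre1* fell. The log2 of the summed linear signals of these 8 was 11.28 to 11.39 in mutant villi and 11.19 to 11.39 in control villi.

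The last 3 members showed small differences or none. *Ly6k*, known from testis and sperm, read 6.77, 6.50 and 6.38 in mutant villi, against 6.14, 6.15 and 5.82 in control villi. Its rise was 1.43-fold (log2 difference 0.51 ± 0.13 SE, limma adjusted p = 0.032). Among the fits without 1 array it was called only without mutant replicate 3 (adjusted p = 0.031; the others gave 0.050 to 0.092). *Ly6h*, known from brain, averaged 5.37 in both groups, with 5.33, 5.47 and 5.31 in mutant villi and 5.42, 5.54 and 5.15 in control villi. *Ly6i*, known from myeloid cells, read 3.84, 3.76 and 3.60 in mutant villi, against 3.83, 3.88 and 3.90 in control villi (log2 difference -0.14, adjusted p = 0.33). Both lay under the median on all arrays, where a change may not be detectable.

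**Figure D2:**
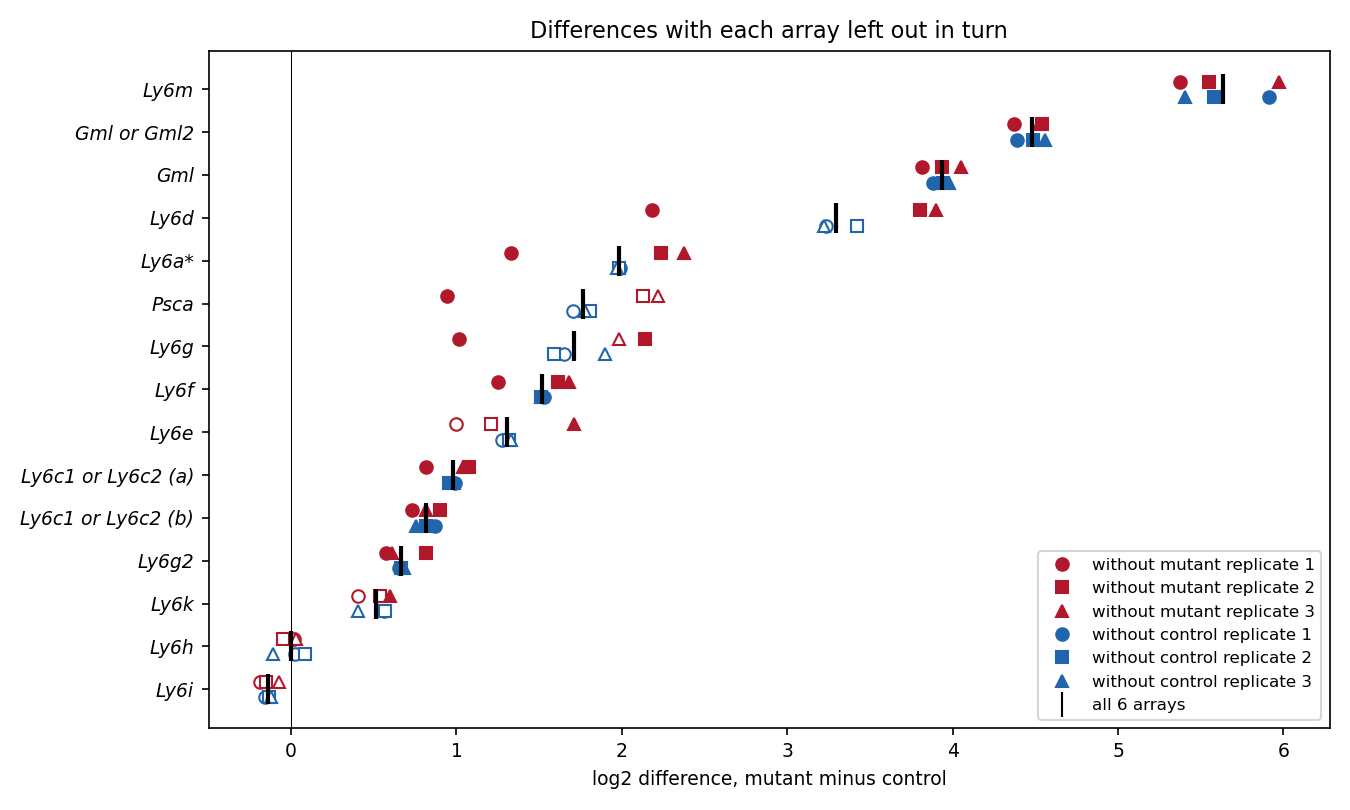
Log2 difference, mutant minus control (horizontal axis), of each Ly6 probe set with all 6 arrays (black bar) and with each mutant array (red) or control array (blue) left out. Filled symbols have a limma adjusted p of at most 0.05, and for *Ly6m*, *Gml* and the probe set shared by *Gml* and *Gml2* this is a description. Without mutant replicate 1 the differences of *Ly6d*, *Ly6a*, *Psca* and *Ly6g* were smaller and all 4 were called.

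The other Ly6/uPAR genes of the cluster were compared in the same way. Of 13 listed, 9 had a probe set of their own. The counts were 2 up, 0 down and 7 not called (all probe sets, 8.04% up and 8.82% down). *Ly6f* read 6.95, 6.23 and 6.09 in mutant villi, against 4.93, 4.90 and 4.89 in control villi (2.86-fold, limma adjusted p = 0.0020). *Ly6g2* read 9.93, 9.45 and 9.85 in mutant villi, against 9.05, 9.07 and 9.11 in control villi (log2 difference 0.67, adjusted p = 0.0093). *Psca* (prostate stem cell antigen), a surface protein of stomach and bladder epithelium, read 8.40, 6.03 and 5.85 in mutant villi, against 4.88, 5.08 and 5.03 in control villi. It missed the threshold (log2 difference 1.76 ± 0.59 SE, adjusted p = 0.083) and passed it without mutant replicate 1 (0.94, adjusted p = 0.0023). *Lypd2* had a difference of 0.39 (adjusted p = 0.057). *Slurp1* and *Slurp2*, secreted by keratinocytes, *Lynx1*, a modulator of nicotinic receptors, and *Gpihbp1*, which carries lipoprotein lipase in capillaries, had differences of -0.03 to 0.13. *Ly6a2* had 0.12, and *Ly6g6g*, noticed after the annotation was read and not in those counts, had 0.16. None of these was called. *Ly6c2* and *Gml2* appear only on shared probe sets, and *Ly6l* and *Ly6s* were not analysed here.

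Along chromosome 15, in the gene order of GRCm38.p6, the differences did not follow position smoothly. *Gml* and *Ly6m* lie on either side of *Cyp11b1* and *Cyp11b2*, steroid hydroxylases of the adrenal gland, whose differences were 0.04 and 0.33 and were not called. *Ly6i* lies between *Ly6e* and *Ly6a*, both of which rose. Of 24 measured neighbours that belong to other families, 12 listed on each side and 6 inside, 2 rose and 2 fell, near the 8.04% and 8.82% of all probe sets, with a median difference of -0.01. *Them6*, inside the cluster next to *Psca*, read 7.36, 7.25 and 7.35 in mutant villi, against 6.15, 6.49 and 6.28 in control villi (log2 difference 1.01, limma adjusted p = 5.2e-04). *Arc* rose by 0.48 (adjusted p = 0.036), whereas *Naprt* fell by 0.64 (0.0058) and *Pycrl* fell by 0.32 (0.033).

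**Figure D3:**
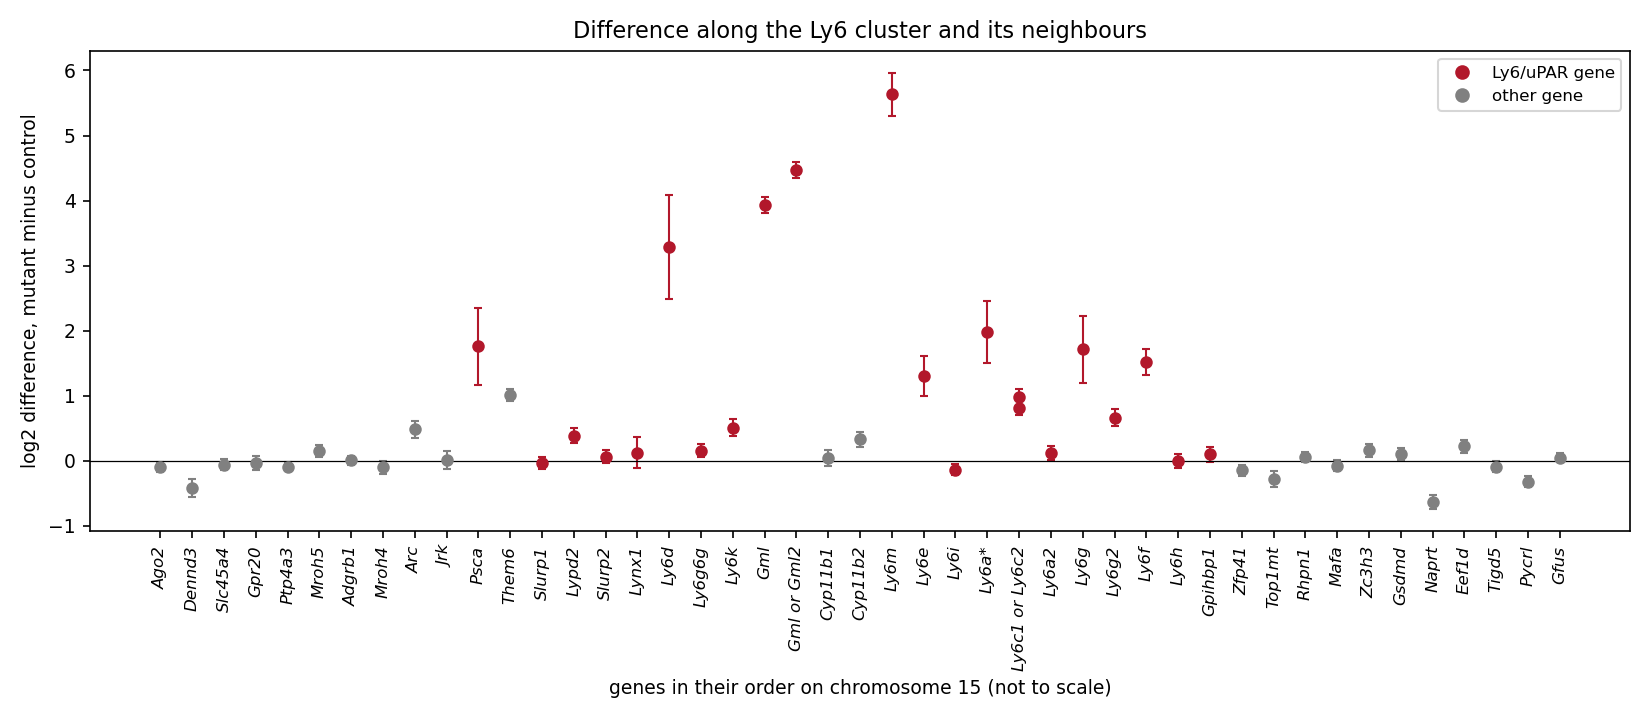
Log2 difference, mutant minus control, with its SE (vertical axis) for measured genes in their order on chromosome 15 (horizontal axis, not to scale). Red points are Ly6/uPAR genes, grey points are other genes, and the asterisk marks the probe set that the study's gene table gives to *Ly6a*. The large differences sit at *Ly6d*, *Gml* and *Ly6m*, and genes between them, such as *Ly6k* (0.51) and *Cyp11b1* (0.04), differ far less.

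The start regions of 5 cluster genes were held in the RefSeq promoter table (GRCm38.p6), and they are shown because these neighbouring genes begin with closely alike sequences. Each window is 300 bases long and runs 5′ to 3′ on the gene's strand. Capitals mark the stretches of 11 bases that all 5 windows share.
Ly6c2 (chr15:75111922-75112221, minus strand): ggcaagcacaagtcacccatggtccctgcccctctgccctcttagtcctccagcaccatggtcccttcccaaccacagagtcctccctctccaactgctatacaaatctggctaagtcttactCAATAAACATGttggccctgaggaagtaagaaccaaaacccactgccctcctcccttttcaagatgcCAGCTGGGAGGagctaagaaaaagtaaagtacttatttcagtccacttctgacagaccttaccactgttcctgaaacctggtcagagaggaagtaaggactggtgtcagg
Ly6a2 (chr15:75135079-75135378, minus strand): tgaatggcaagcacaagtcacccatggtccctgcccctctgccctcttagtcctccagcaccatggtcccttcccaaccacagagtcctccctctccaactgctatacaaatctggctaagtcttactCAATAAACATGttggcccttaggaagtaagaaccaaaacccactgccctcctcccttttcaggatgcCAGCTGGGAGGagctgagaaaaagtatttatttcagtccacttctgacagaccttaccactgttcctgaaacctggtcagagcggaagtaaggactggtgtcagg
Ly6c1 (chr15:75048788-75049087, minus strand): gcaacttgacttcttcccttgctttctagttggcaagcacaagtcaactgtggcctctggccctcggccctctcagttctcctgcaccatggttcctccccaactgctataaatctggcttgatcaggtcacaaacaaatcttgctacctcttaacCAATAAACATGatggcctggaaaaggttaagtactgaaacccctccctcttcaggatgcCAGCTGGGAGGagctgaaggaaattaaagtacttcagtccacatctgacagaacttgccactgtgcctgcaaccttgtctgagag
Ly6f (chr15:75268171-75268470, plus strand): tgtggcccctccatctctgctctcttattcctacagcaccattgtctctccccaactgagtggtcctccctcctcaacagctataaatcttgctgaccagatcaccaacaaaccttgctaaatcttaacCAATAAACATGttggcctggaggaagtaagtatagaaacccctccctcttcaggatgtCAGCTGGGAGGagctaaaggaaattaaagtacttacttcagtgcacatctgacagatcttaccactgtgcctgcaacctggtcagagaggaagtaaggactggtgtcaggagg
Ly6g (chr15:75155011-75155310, plus strand): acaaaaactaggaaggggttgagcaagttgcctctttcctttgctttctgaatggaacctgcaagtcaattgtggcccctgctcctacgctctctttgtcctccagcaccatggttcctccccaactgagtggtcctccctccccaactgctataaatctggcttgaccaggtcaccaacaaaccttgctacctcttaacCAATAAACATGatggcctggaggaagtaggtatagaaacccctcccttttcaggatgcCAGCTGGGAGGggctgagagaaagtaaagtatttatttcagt

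The windows of *Ly6a2* and *Ly6c2* were identical at 291 of 300 aligned positions (97%). Positions with a gap inside the alignment are counted here, and overhanging ends are left out. The *Ly6a2* probe set read 4.61, 4.89 and 4.62 in mutant villi, against 4.74, 4.57 and 4.44 in control villi (log2 difference 0.12, not called). *Ly6c2* has no signal of its own to set beside it, since its probe sets also read *Ly6c1*. *Ly6f* and *Ly6g* were identical at 201 of 230 aligned positions (87.4%), and the remaining pairs at 71.1% to 77.9%. The first shared stretch, CAATAAACATG, was found on either strand in 17 of 32851 mouse promoter windows (0.0517%), and the second, CAGCTGGGAGG, in 42 (0.128%). Both stretches were picked because all 5 windows share them. Those windows are among the matches, so the counts are a description. The TATA box TATAAA was present in the windows of *Ly6c1*, *Ly6f* and *Ly6g* and in 13.6% of all windows. Letters for STAT factors (TTCNNNGAA, 8.3% of all windows), AP-1 (TGANTCA, 7.81%), NRF2 (TGACNNNGC, 12.4%) and the interferon response (GAAANNGAA, 8.56%) were searched on both strands and were not in these 5 windows. The motifs may overlap one another, and their absence from a window says nothing about the factors.

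Mutant replicate 1 stood apart for 4 genes of the family. A probe set was at least 1 log2 unit higher there than on both other mutant arrays in 30 of 30177 cases (0.0994%). Of the 22 probe sets of the cluster, 4 were among them, those of *Ly6d*, *Psca*, *Ly6a* and *Ly6g*. The array and this cut were chosen after the values were seen, so the count is a description. The range over mutant arrays was 3.43 for *Ly6d*, 2.55 for *Psca*, 2.25 for *Ly6g* and 2.09 for *Ly6a*, against a median of 0.19 over all probe sets. Some gastric genes were high on the same array. *Tff2*, a secreted trefoil peptide of gastric mucous cells, read 8.17, 5.84 and 5.67 in mutant villi, against 5.51, 5.65 and 5.73 in control villi. *Gkn2*, a gastrokine of the stomach surface, read 7.56, 4.98 and 4.83 in mutant villi, against 4.43, 4.52 and 4.36 in control villi. Of 8 gastric markers, 6 were highest on that array and none was called. Some of these leads were small, as 4 of the 8 lay under the array median on every array. *Muc5ac* read 5.14, 4.94 and 5.13 in mutant villi, and *Pgc* read 4.93, 4.85 and 4.75. The log2 of their summed linear signals was 9.64, 8.48 and 8.35 in mutant villi, against 8.27, 8.27 and 8.25 in control villi. *Atp4a* and *Atp4b*, the proton pump of parietal cells, and the mucin *Muc5ac* had log2 differences of 0.23, 0.06 and 0.11. Every mutant array lay above every control array for 3 of the 8 gastric markers, while 16.9% of all probe sets showed that order. The gaps were 0.31 log2 units for *Gkn2*, 0.12 for *Atp4a* and 0.07 for *Pgc*. The part of gastric RNA in the signals of mutant replicate 1 was not tested. Of 6 fibroblast markers, *Dcn* and *Pdgfra* rose. The log2 of the summed linear signals of all 6 was 10.99, 11.37 and 11.23 in mutant villi, against 10.43, 10.85 and 10.78 in control villi. The part of fibroblasts in the Ly6 signals was not tested. None of 6 smooth muscle markers was called.

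**Figure D4:**
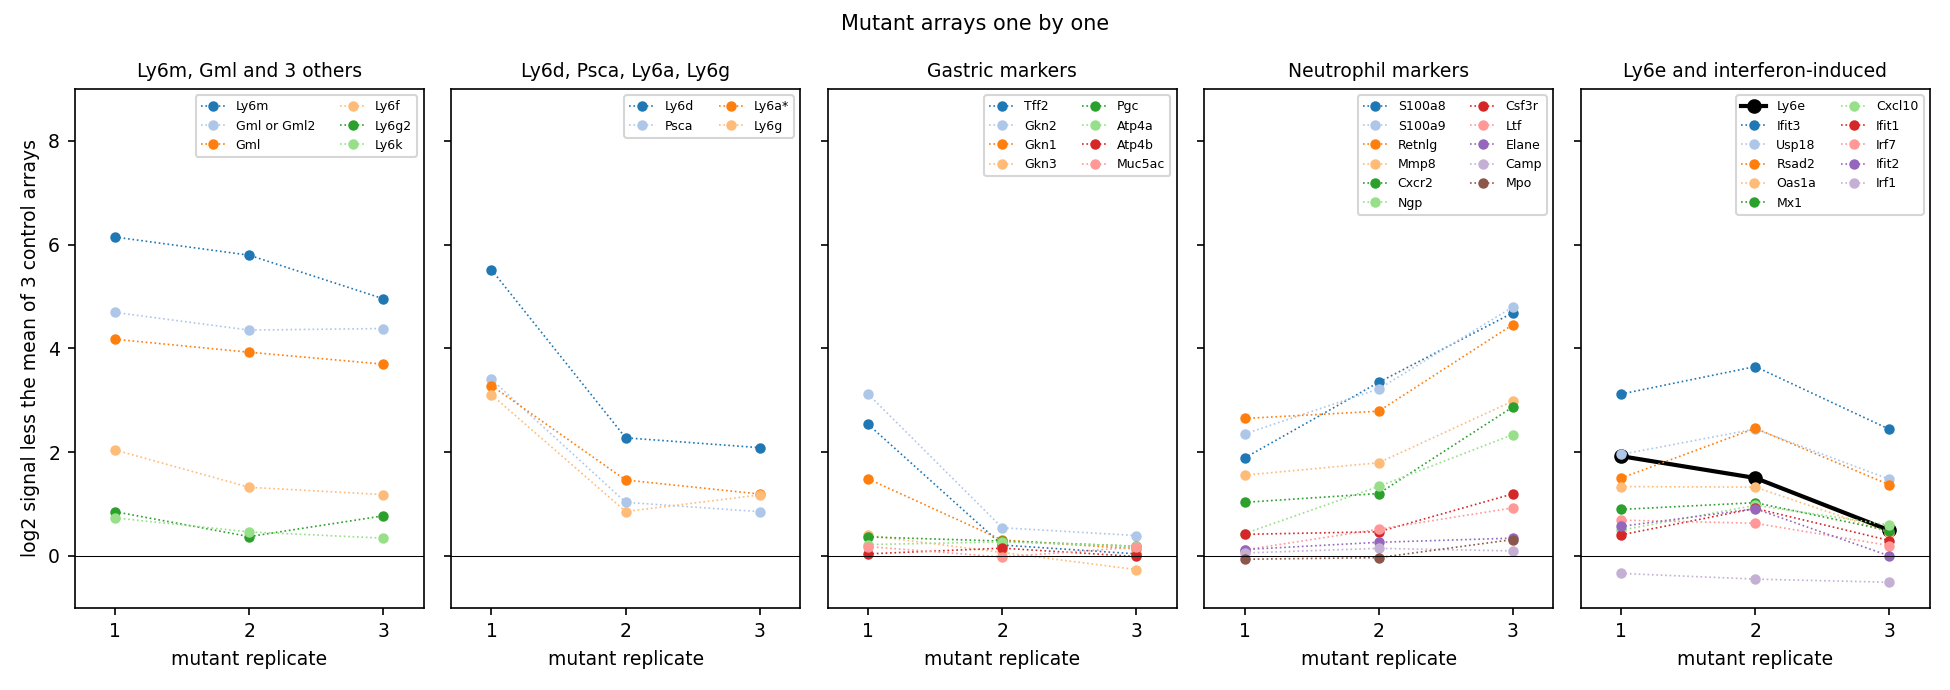
Log2 signal less the mean of the 3 control arrays (vertical axis) on each mutant array (horizontal axis, replicates without order, dotted lines join the values of 1 gene) for Ly6 genes and for gastric, neutrophil and interferon-induced genes. *Ly6d*, *Psca*, *Ly6a* (asterisk, by the study's gene table), *Ly6g*, *Tff2* and *Gkn2* are highest in mutant replicate 1, whereas *S100a9* is highest in mutant replicate 3.

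Of 19 measured Ly6/uPAR genes outside the cluster, 2 rose and 1 fell, near the shares of all probe sets (8.04% and 8.82%), and their median log2 difference was 0.06. *Plaur*, the urokinase receptor, read 10.05, 9.76 and 9.21 in mutant villi, against 6.83, 6.55 and 6.41 in control villi, an 8.44-fold rise (limma adjusted p = 1.1e-04). *Lypd3* rose by 0.44 on the log2 scale (adjusted p = 0.038), a call that was kept only without control replicate 1 when arrays were left out (adjusted p = 0.031 to 0.11). *Lypd1* read 6.50, 6.14 and 6.20 in mutant villi, against 7.97, 8.50 and 8.52 in control villi, so it was 4.14-fold lower (adjusted p = 2.2e-04). *Lypd8*, which binds flagellated bacteria at the colon surface, was bright in both groups at 13.37, 12.81 and 12.52 in mutant villi, against 12.57, 12.51 and 12.52 in control villi (difference 0.37, adjusted p = 0.25).

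Genes that build and attach the GPI anchor did not move as a block. Among the 28 on the array 3 rose and 4 fell, 21 were uncalled (all probe sets, 8.04% up and 8.82% down), and the list had a median log2 difference of -0.02. *Pgap1*, which removes the acyl chain from the inositol of a new anchor, read 11.06, 10.50 and 10.61 in mutant villi, against 9.60, 9.33 and 9.37 in control villi (log2 difference 1.29, limma adjusted p = 0.0011). *Pigp*, read by its brightest probe set, fell by 0.99 (adjusted p = 2.7e-04), *Pigq* fell by 0.48 (0.013) and *Pgap3*, which remodels the lipid of the anchor, fell by 0.45 (0.0066). *Pigp* and *Pigq* belong to the enzyme complex of the first step, whose catalytic subunit *Piga* rose by 0.39 (0.040), while *Pigc* (0.27) and *Pigh* (-0.03) were not called.

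Genes with the most similar profiles were found by the root mean square distance between log2 values, each taken less the gene's control mean, over the same 6 arrays. This is a description, since the profiles carry the group difference. Members were left out of this ranking, although some lay closer than the genes named. *Ly6m* lay at 1.27 from *Gml* and 0.95 from the probe set of *Gml* and *Gml2*, and *Ly6a* lay at 0.32 from *Ly6g*. Nearest to *Ly6m* outside the members were *Akr1b8* (0.65), an aldo-keto reductase, *Serpinb9b* (1.23), *Slc5a12* (1.29), *Fabp6* (1.39) and *Gclc* (1.65). *Akr1b8* read 12.07, 11.86 and 10.37 in mutant villi, against 6.23, 6.58 and 6.56 in control villi. Nearest to *Gml* were *Slc5a12* (0.27), a lactate transporter, *Serpinb9b* (0.34), *Ereg* (0.48), *Gclc* (0.55) and *Gpx2* (0.61). For *Ly6a* they were *Psca* (0.24), *Slc1a4* (0.33), *Arl14* (0.39), *Slc7a11* (0.40) and *Angptl4* (0.40). For *Ly6d* they were *Slc10a2* (0.70), a bile acid transporter, *Slc7a11* (0.79), *Sult6b2* (0.83), *Gclc* (0.83) and *Oas2* (0.89). *Gclc*, a subunit of the enzyme that starts glutathione synthesis, was thus among the 5 nearest genes outside the members for *Ly6m*, *Gml* and *Ly6d*, at 12.81, 12.10 and 11.51 in mutant villi, against 9.19, 8.58 and 8.70 in control villi.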

How the data were processed

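Whole-transcript arrays of villus RNA from 3 mutant and 3 control samples were used. The authors deposited log2 signals for 30177 probe sets, already normalized and rounded to 0.01. How background was corrected and probes summarised is, for these arrays, not given in the sources used here, and their number of arrays limits the precision. Gene symbols came from the platform annotation, in which 21789 probe sets had 1 symbol, 1621 had several and 6767 were not listed. Neighbouring genes and promoters came from RefSeq tables (GRCm38.p6), which held windows for 5 of 23 genes searched.

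Groups were compared with limma 3.58.1 (lmFit and eBayes) in R 4.3.3 on the values as deposited, two-sided, adjusted by Benjamini-Hochberg over the whole table, and a threshold of 0.05, tested on simulated data first. Standard errors are moderated. An exact permutation test of 3 against 3 arrays cannot go below p = 0.1, so none is given. The named genes were all members, the measured relatives in the cluster, the called relatives elsewhere (at most 6), the called neighbours and GPI anchor genes (at most 4 each) and the 5 nearest profiles of *Ly6m*, *Gml*, *Ly6a* and *Ly6d*. The nearest profiles leave out members. *Lypd8*, *Cyp11b1*, *Cyp11b2*, *Piga*, *Pigc*, *Pigh*, *Xist*, *Eif2s3y* and the markers shown by value were named after their values were seen. Members, lists and tests were chosen with earlier results of these data known. Alternatives were array weights, a replicate block, trend with robust estimation in eBayes, quantile normalization, median centring, a filter on dim probe sets, an offset of 32, the probe set of lowest mean, a 2-fold minimum, shared probe sets, and each array left out.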

Additional observations from a re-analysis of the deposited data

How the results depend on the processing

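Among the single Ly6/uPAR genes refitted under the alternatives, no called direction reversed, and for neighbours, GPI anchor genes and markers only counts, or nothing, were recomputed. For all probe sets, the numbers higher and lower were 2427 and 2661. With 1 array left out they ranged from 1561 to 2037 higher and from 1688 to 2348 lower, and with a 2-fold minimum they were 408 and 354. Median centring gave 1996 higher and 3456 lower. Members called higher numbered 3 of 6 without *Ly6m* and *Gml*, against 8.04% of all probe sets, and 5 of 8 with them. The rises of *Ly6m* and *Gml* were known beforehand, so counts of members in this section, which include them, are a description. Members called higher numbered 3 with trend and robust estimation. They numbered 8 with the shared probe sets counted, that of *Gml* and *Gml2* included, and 6 with the *Ly6a* probe set (an alternative chosen after seeing the data). With 1 array left out they numbered 2 to 5. The 2, which were *Ly6m* and *Gml*, came from leaving out any of the 3 control replicates. Trend and robust estimation ended the calls of *Ly6d* (adjusted p = 0.13), *Ly6a* (0.099) and *Ly6e* (0.074), and the offset of 32 ended those of *Ly6d* (0.070) and *Ly6a* (0.057). The cause was not tested. Relatives called higher numbered 4, and 2 with dim probe sets left out, where fewer were tested. With 1 array left out, neighbours called higher numbered 1 to 2 and lower 1 to 2, and GPI anchor genes called higher 1 to 2. Centring gave 1 for neighbours and 1 for GPI anchor genes, and the offset gave 1 for neighbours called higher. Deviations of same-numbered arrays correlated at 0.17, 0.04 and 0.12, against -0.16 to 0.09 for arrays of unlike number. Whether the numbers pair the arrays cannot be told from these values. With the replicate block 2381 probe sets were higher and 2576 lower, 5 members were higher, and GPI anchor genes numbered 2 higher and 5 lower. Of the single-gene values under alternatives, 206 kept their side of the threshold, 27 lost it and 7 gained it. This tally is a description, since it includes *Ly6m* and *Gml*, and *Ly6h* and *Ly6i*, which were called in no fit. Signals under the array median may lie at background, which limits *Ly6h*, *Ly6i* and *Ly6g* most.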

Other observations

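Genes outside the Ly6 family also stood higher on mutant replicate 1 than on the other arrays, in a ranking made after values were seen. *Car2*, carbonic anhydrase 2, read 10.17, 7.26 and 7.27 in mutant villi, against 6.68, 6.90 and 6.99 in control villi. *Ctse*, cathepsin E, a protease of gastric surface cells, read 10.49, 7.81 and 7.47 in mutant villi, against 8.29, 8.36 and 8.35 in control villi, so mutant replicates 2 and 3 lay below every control array. *Mucl3*, a mucin-like gene, read 8.31, 5.57 and 4.87 in mutant villi, against 4.82, 4.95 and 4.91 in control villi. By the excess over the next mutant array, *Xist* was first (4.92 log2 units), *Ly6d* second (3.24) and *Car2* next (2.90).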
